A study of Mus musculus with 6 samples.

Results

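The 10 genes followed here encode mediators of basophils and mast cells and receptors that set them off: Mcpt8, Prss34, Cpa3, Fcer1a, Hdc, Il4, Il13, Il6, Il1rl1 and Tph1. They were taken by name, as mediators or receptors known from basophils and mast cells, with earlier results of these data known. All 10 of 10 genes were listed in each of the 6 libraries, among 32285 genes. Their levels were read in cell classes of bone marrow, spleen and tumor, first by class, then along the marrow cells between progenitor and basophil, and last between the genotypes.

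The libraries came from mice labelled Cysltr1 KO, after the gene of a receptor for cysteinyl leukotrienes, and from BALB/c mice labelled WT. Mice of both genotypes bore tumors of EMT6, an established BALB/c line of mammary carcinoma. Bone marrow was enriched magnetically for progenitor cells and spleen and tumor for CD45-bearing cells, so the share of a class among the cells was set in part by the enrichment. There was 1 library per tissue and genotype, each from a pool of 3 mice, so no difference between genotypes has a replicate check, no test was run, and every interval below is a 95% interval for counting error alone. Ages, and the construction of the Cysltr1 allele, are not given in the sources used here.

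Basophils and mast cells are granule-bearing cells that arm themselves with IgE bound to the high-affinity Fc epsilon receptor. When the receptor is cross-linked they release stored proteases and histamine and make lipid mediators and cytokines, of which interleukin 4 and interleukin 13 act on B cells, macrophages and epithelium. Both lineages are thought to arise in mouse marrow from progenitors with high levels of the transcription factor Gata2, and mouse basophils are set apart from mast cells by the proteases encoded by Mcpt8 and Prss34. Group 2 innate lymphoid cells (ILC2) share with them the alarmin receptor encoded by Il1rl1 and the capacity to make interleukin 13.

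The libraries held 40377940 to 75873784 UMIs (unique molecular identifiers, each standing for 1 captured transcript). After filtering, 6050 KO and 4987 WT marrow cells, 7701 KO and 8312 WT spleen cells, and 5975 KO and 7880 WT tumor cells were kept. The median depth of marrow cells was 6335 UMIs in the KO library and 12757 in the WT library. Any pair of libraries shared 46 to 128 cell barcodes. Cysltr1, the targeted gene, had 24.6 CPM (UMIs of the gene per 1000000 UMIs of the cells summed) in KO marrow and 4.78 CPM in WT marrow, 33.3 CPM in KO spleen and 6.83 CPM in WT spleen, and 7.58 CPM in KO tumor and 9.91 CPM in WT tumor. Transcripts of the targeted gene thus ran against the labels in marrow and spleen, and the counts do not show which part of the gene was read. An exchange of labels and transcription of a changed allele cannot be told apart here. If the labels of a tissue were exchanged, every direction between genotypes given below for that tissue would turn round. The words KO-labelled and WT-labelled below stand for the libraries labelled Cysltr1 KO and WT.

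In marrow, 1 cluster carried the 13 basophil markers fixed for the naming; none of the 10 genes took part in clustering or naming. It held 349 KO-labelled cells, 5.77% of the library (5.19 to 6.39%), and 289 WT-labelled cells, 5.80% (5.16 to 6.48%). All 13 of 13 markers had a UMI in at least 10% of these cells. Of 12 mast cell markers, 8 were at 0 in KO-labelled and 7 in WT-labelled cells, among them Mcpt4, Tpsb2, Tpsab1 and Mrgprb2 in both. The 3 found in at least 10% of the cells, Ms4a2, Gata2 and Slc18a2, are also basophil markers. Kit, another mast cell marker, had 20 UMIs in KO-labelled and 38 in WT-labelled cells. These cells are called basophil-like. A second cluster, called Gata2-high progenitor-like, held 196 KO-labelled and 221 WT-labelled cells and carried 11 of 11 of its markers. Another cluster, called ILC2-like, held 57 KO-labelled and 53 WT-labelled cells, with 9 of 14 markers in the KO-labelled cells and 7 of 14 in the WT-labelled cells. Cd3e, Cd3d and the ILC2 cytokine gene Il5 were at 0 in it, while Cd3g had a UMI in 1 KO-labelled and 2 WT-labelled cells. The T cell receptor gene Tcrg-C1 was among its 10 leading genes. No cluster of spleen or tumor took any of these names, which is no count of absent cells, since many clusters there stayed unnamed. Spleen cluster 8, of 531 cells, had 7 detected ILC2 markers but as many natural killer as ILC2 markers among its leading genes. With clustering at resolution 2 a spleen cluster was called ILC2-like and was the highest class for Il4.

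The granule protease genes were high in basophil-like cells. Mcpt8 encodes mast cell protease 8, a granule serine protease found in mouse basophils. It lies on chromosome 14 (56082166 to 56085273, minus strand, build mm10). Basophil-like cells had 13527 CPM of Mcpt8 in the KO-labelled library (13338 to 13717) and 11301 CPM in the WT-labelled library (11154 to 11450). A UMI of Mcpt8 was found in 98.0% of KO-labelled and 96.2% of WT-labelled basophil-like cells. In plasmacytoid dendritic-like cells of the same marrow, which should lack the gene, 1.68% of KO-labelled and 2.91% of WT-labelled cells had one, although these cells were deeper (median 4633 UMIs in KO-labelled and 11012 in WT-labelled cells, against 3455 in KO-labelled and 6449 in WT-labelled basophil-like cells). Of all Mcpt8 UMIs of marrow, 96.6% in the KO-labelled and 92.1% in the WT-labelled library came from the basophil-like cells.

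Prss34 encodes mast cell protease 11, a second serine protease of mouse basophil granules, on chromosome 17 (25298394 to 25300165, plus strand, mm10). It had 51375 CPM in KO-labelled and 45703 CPM in WT-labelled basophil-like cells, and 99.4% of its marrow UMIs in the KO-labelled and 96.2% in the WT-labelled library lay in them. In the median cell Prss34 alone took 4.85% of all UMIs in KO-labelled and 3.54% in WT-labelled basophil-like cells. Fewer cells of the class had a UMI of Prss34 than of Mcpt8, 88.8% of KO-labelled and 86.9% of WT-labelled cells, beside 4.38% and 4.85% of KO-labelled and WT-labelled plasmacytoid dendritic-like cells.

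Cpa3 encodes carboxypeptidase A3, a metalloprotease stored in granules of both mast cells and basophils, on chromosome 3 (20215620 to 20242181, minus strand, mm10). Its level was 4526 CPM in KO-labelled and 3962 CPM in WT-labelled basophil-like cells, with a UMI in 95.4% and 97.2% of KO-labelled and WT-labelled cells and in 1.35% and 0% of the plasmacytoid dendritic-like cells. Cpa3 reached further back than the serine proteases. In Gata2-high progenitor-like cells it had 355 CPM in the KO-labelled library and 312 CPM in the WT-labelled library, in 37.2% and 35.8% of the cells.

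The stretches before the first transcribed base of these genes and of Fcer1a are shown because the 4 genes were high in the same cluster. Each is 250 bases long, ends at the base before the start given by RefSeq on build GRCm38.p6, and is printed 5′ to 3′ on the gene's strand. Capitals mark the letters GATAA, or TTATC where they lie on the other strand, the core that GATA factors are known to bind.
Mcpt8, chr14:56085198-56085447, minus strand: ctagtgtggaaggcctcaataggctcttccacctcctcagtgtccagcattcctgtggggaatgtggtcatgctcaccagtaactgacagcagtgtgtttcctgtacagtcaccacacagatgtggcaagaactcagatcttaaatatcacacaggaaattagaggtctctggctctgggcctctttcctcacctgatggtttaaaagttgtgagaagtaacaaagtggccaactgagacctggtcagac
Prss34, chr17:25298144-25298393, plus strand: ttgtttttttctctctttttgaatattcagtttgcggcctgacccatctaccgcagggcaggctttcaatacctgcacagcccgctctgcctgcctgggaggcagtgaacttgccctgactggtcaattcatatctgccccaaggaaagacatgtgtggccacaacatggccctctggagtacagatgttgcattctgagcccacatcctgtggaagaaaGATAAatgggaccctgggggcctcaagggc
Cpa3, chr3:20242182-20242431, minus strand: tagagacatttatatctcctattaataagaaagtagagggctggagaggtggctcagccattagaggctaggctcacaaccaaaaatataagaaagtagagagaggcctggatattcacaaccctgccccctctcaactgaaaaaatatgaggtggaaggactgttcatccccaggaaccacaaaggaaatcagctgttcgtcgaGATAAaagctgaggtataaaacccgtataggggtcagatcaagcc
Fcer1a, chr1:173227230-173227479, minus strand: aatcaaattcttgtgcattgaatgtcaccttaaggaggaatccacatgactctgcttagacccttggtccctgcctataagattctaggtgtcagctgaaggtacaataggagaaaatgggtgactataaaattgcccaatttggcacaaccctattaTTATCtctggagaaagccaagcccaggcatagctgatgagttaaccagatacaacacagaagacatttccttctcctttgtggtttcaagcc
The letters ended 25 bases before the start of Prss34, 40 before that of Cpa3 and 87 before that of Fcer1a, and were not in the window of Mcpt8. Among 32851 mouse promoter windows of the same length, 22.6% held them on either strand. Of the 13 windows of the 10 genes, 7 held them, and 6 of the 10 genes had them at 1 or more of their starts. A search for TTCNNNGAA, the core bound by STAT factors, found none in the 13 windows of the 10 genes (7.02% of all windows hold it), and TTGCNNAA, a core bound by C/EBP factors, was in 4 of 13 (9.56% of all windows). Both strands were read, no match overlapped one of another motif, and a match is a description of letters, not a site of binding.

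The Fc epsilon receptor gene followed Cpa3. Fcer1a encodes the chain that binds IgE, on chromosome 1 (173221284 to 173227214, minus strand, mm10). It had 1648 CPM in KO-labelled and 1555 CPM in WT-labelled basophil-like cells, where 93.4% and 93.8% of the cells had a UMI, against 0.673% of KO-labelled and 0% of WT-labelled plasmacytoid dendritic-like cells. Gata2-high progenitor-like cells had 209 CPM of Fcer1a in the KO-labelled and 188 CPM in the WT-labelled library, in 32.1% and 34.8% of the cells. Over the 64 clusters of the 3 tissues, the gene whose log level was most like that of Fcer1a was Ms4a2, a marker of the class that encodes the beta chain of the same receptor (Pearson r 0.981). Ms4a2 was also the most similar gene to Cpa3 (r 0.953), and Prss34 and Mcpt8 were each other's (r 0.968); such values describe clusters that share libraries and depth. The gamma chain gene Fcer1g, which many myeloid cells use, had 2411 CPM in KO-labelled and 1886 CPM in WT-labelled basophil-like cells.

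Il1rl1 encodes ST2, the receptor for interleukin 33, on chromosome 1 (40429570 to 40465415, plus strand, mm10). It was a minor transcript of marrow and a prominent one of tumor. In marrow its level was highest in ILC2-like cells, with 201 CPM in KO-labelled cells (121 to 313) and 415 CPM in WT-labelled cells (284 to 586), from 19 and 32 UMIs. Basophil-like cells had 50.3 CPM in the KO-labelled and 53.3 CPM in the WT-labelled library, in 17.8% and 28.03% of the cells. Gata2-high progenitor-like cells had 28.9 CPM in the KO-labelled and 35.3 CPM in the WT-labelled library. No plasmacytoid dendritic-like cell had a UMI of Il1rl1 in either library, so at this depth the gene was present in all 3 classes above the background of that class.

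The 2 starts of Il1rl1 in RefSeq are shown because the gene was split between marrow classes and tumor clusters; the counts do not tell which start was used. The upstream start is followed by a transcript of mast cells and the other by one of stromal cells in published work on mouse ST2, which is background here.
Il1rl1 upstream start, chr1:40429320-40429569, plus strand: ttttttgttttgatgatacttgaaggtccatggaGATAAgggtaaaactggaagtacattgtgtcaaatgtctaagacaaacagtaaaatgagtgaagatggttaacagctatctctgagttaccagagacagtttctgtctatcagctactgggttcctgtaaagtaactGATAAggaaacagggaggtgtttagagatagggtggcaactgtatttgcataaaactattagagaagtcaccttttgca
Il1rl1 downstream start, chr1:40439379-40439628, plus strand: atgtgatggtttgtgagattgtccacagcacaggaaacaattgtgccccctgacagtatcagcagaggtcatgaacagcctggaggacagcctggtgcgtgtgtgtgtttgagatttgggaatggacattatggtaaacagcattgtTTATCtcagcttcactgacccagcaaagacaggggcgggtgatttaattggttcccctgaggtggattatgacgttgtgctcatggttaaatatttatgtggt
Capitals again mark GATAA or TTATC. The upstream window held 2 matches, the nearer ending 74 bases before the start, and the downstream window held 1, ending 98 bases before it.

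In tumor, the highest levels of Il1rl1 were in clusters with little Ptprc, the gene of CD45. The highest level of any class was in an unnamed cluster, number 9, with 1273 CPM in KO-labelled cells (1228 to 1320) and 994 CPM in WT-labelled cells (964 to 1025). In that cluster 80.3% of KO-labelled and 74.0% of WT-labelled cells had a UMI, Ptprc had 21.8 and 28.1 CPM and the collagen gene Col1a1 had 1006 and 833 CPM in KO-labelled and WT-labelled cells. The keratin gene Krt8 had 452 CPM in KO-labelled and 298 CPM in WT-labelled cells there. Unnamed clusters 2 and 6, with little Ptprc too, had 561 and 383 CPM of Il1rl1 in KO-labelled and 489 and 338 CPM in WT-labelled cells. Carcinoma-like cells had 413 CPM of Il1rl1 in the KO-labelled and 478 CPM in the WT-labelled library, and endothelial-like cells 362 CPM and 469 CPM. Over the 64 clusters the most similar gene was P4ha2, a collagen prolyl hydroxylase (r 0.910).

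Tumor leukocytes had Il1rl1 too, mostly at lower levels and beside UMIs of carcinoma genes. Tumor T-cell-like cells had 152 CPM of Il1rl1 in the KO-labelled and 132 CPM in the WT-labelled library, with 118 CPM and 85.5 CPM of the epithelial keratin gene Krt8. Tumor neutrophil-like cells had 214 CPM in the KO-labelled and 236 CPM in the WT-labelled library, in 24.5% and 23.9% of the cells, while their 3 clusters had 187 to 419 CPM of Krt8 in KO-labelled and 155 to 451 CPM in WT-labelled cells. Among them cluster 11 had 352 CPM of Il1rl1 in KO-labelled and 403 CPM in WT-labelled cells, above the 322 CPM and 339 CPM of cluster 10, which had little Ptprc. Krt8 is not known as a leukocyte gene, and the part of free RNA in the Il1rl1 of tumor leukocytes was not tested. The spleen libraries as a whole had 0.696 CPM of Il1rl1 in the KO-labelled and 0.437 CPM in the WT-labelled cells.

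**Figure D1:**
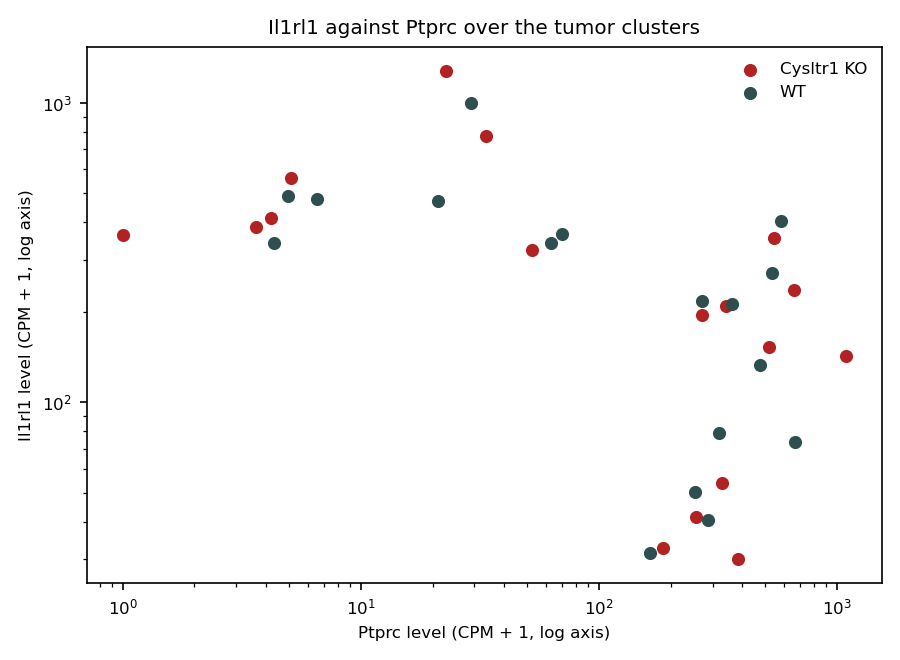
Level of Il1rl1 (vertical, CPM + 1) against that of Ptprc (horizontal, CPM + 1), both on log axes, 1 point per tumor cluster and library. The highest Il1rl1 is in a cluster with little Ptprc, number 9, with 1273 CPM in KO-labelled and 994 CPM in WT-labelled cells, while neutrophil-like cluster 11 has 352 CPM and 403 CPM beside high Ptprc.

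The amine genes parted ways. Hdc encodes histidine decarboxylase, the enzyme that makes histamine, on chromosome 2 (126593667 to 126619299, minus strand, mm10). In basophil-like cells it had 656 CPM in the KO-labelled library (615 to 699) and 561 CPM in the WT-labelled library (529 to 595), in 85.4% and 92.4% of the cells. Only 22.3% of the marrow UMIs of Hdc in the KO-labelled and 22.2% in the WT-labelled library lay in basophil-like cells, while neutrophil-like cells, in which it had 2199 UMIs in the KO-labelled and 1933 UMIs in the WT-labelled library, held more than basophil-like cells did (953 and 1116 UMIs).

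Neutrophils are known to make histamine under some conditions, and Hdc was higher in several spleen and tumor clusters with neutrophil markers than in basophil-like cells. The highest was spleen cluster 15, with 1489 CPM in KO-labelled and 1504 CPM in WT-labelled cells. An unnamed spleen cluster, number 11, led by Lrg1, Il1b and Clec4e and holding 10 detected neutrophil markers, had 1259 CPM in KO-labelled and 1292 CPM in WT-labelled cells. Tumor clusters 5, 4 and 11 had 1268, 1079 and 941 CPM in KO-labelled cells and 1038, 723 and 667 CPM in WT-labelled cells.

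Within the neutrophil clusters, Hdc was low where genes of immature granules were high. Marrow clusters 0 and 7, with 22086 and 32362 CPM of the elastase gene Elane in KO-labelled cells and 20888 and 28742 CPM in WT-labelled cells, had 99.2 and 132 CPM of Hdc in KO-labelled cells and 81.5 and 111 CPM in WT-labelled cells. Spleen cluster 3, rich in the secondary granule gene Camp, had 173 CPM of Hdc in KO-labelled and 169 CPM in WT-labelled cells, and spleen cluster 21, also rich in Camp, 398 CPM and 425 CPM. Camp-rich marrow cluster 3 had 173 CPM and 121 CPM of Hdc. Marrow cluster 5 had less Camp, 4502 CPM in KO-labelled and 6632 CPM in WT-labelled cells. Its Hdc, 353 CPM and 458 CPM, was near that of spleen cluster 21, so tissue and granule stage were not read apart. Spleen cluster 15, where Camp was at 17.3 CPM in KO-labelled and 44.8 CPM in WT-labelled cells, had 1471 CPM and 1441 CPM of Cxcr2, the chemokine receptor gene of mature neutrophils. Over the 64 clusters the genes most like Hdc were Clec4e (r 0.859) and Cxcr2 (r 0.827). In a class that should lack Hdc, 0.412% of KO-labelled and 1.08% of WT-labelled B-lineage cells of spleen had a UMI of Hdc.

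**Figure D2:**
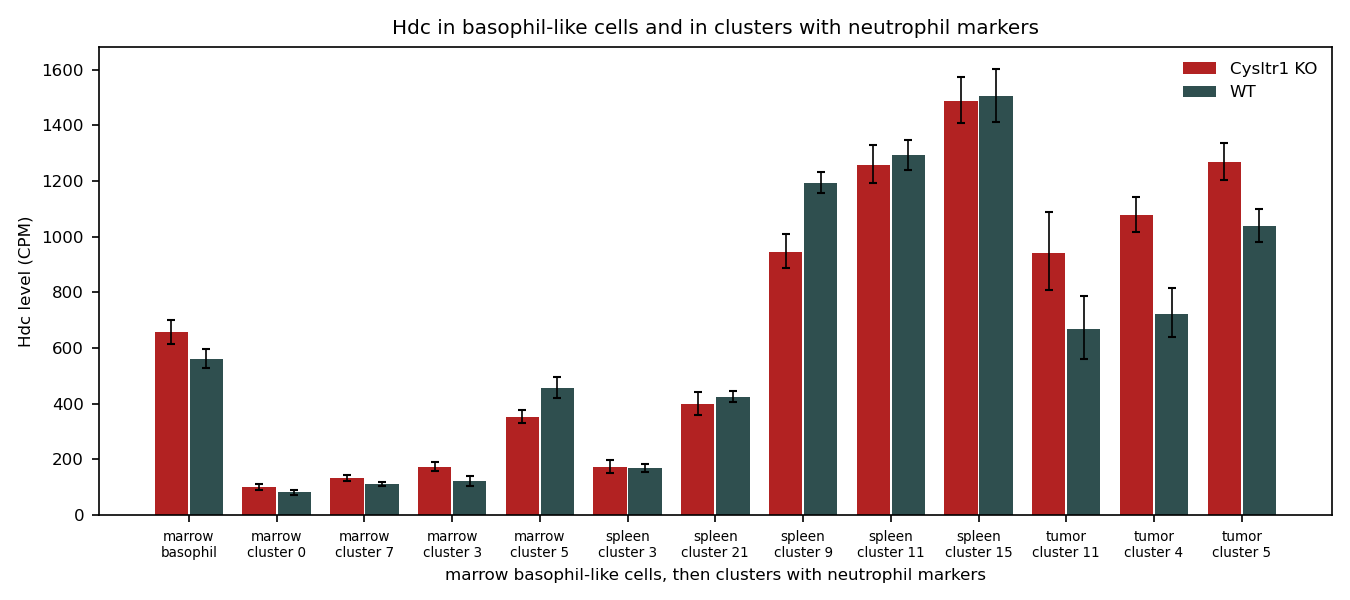
Level of Hdc (CPM, linear axis from 0) in marrow basophil-like cells and in each cluster with neutrophil markers, KO-labelled left of WT-labelled, with 95% Poisson intervals as error bars. Hdc is lowest in marrow clusters 0 and 7 and highest in spleen cluster 15, followed by tumor cluster 5 in KO-labelled (1268 CPM) and spleen cluster 11 in WT-labelled cells (1292 CPM).

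Tph1, on chromosome 7 (46644641 to 46672537, minus strand, mm10), encodes the tryptophan hydroxylase that makes serotonin outside neurons and is known from mouse mast cells. It had 0 UMIs in basophil-like cells, which allows up to 2.07 CPM in the KO-labelled and 1.51 CPM in the WT-labelled cells. ILC2-like cells had 2 UMIs in KO-labelled and 2 in WT-labelled cells. The largest sum was in tumor, with 16 UMIs in 6 cells of the KO-labelled library and 2 UMIs in 2 cells of the WT-labelled library. Neither Ddc, the next enzyme of serotonin synthesis, nor the neuronal form Tph2 had a UMI in basophil-like cells, whereas Slc18a2, the vesicular transporter that loads amines into granules, had 103 CPM in KO-labelled and 135 CPM in WT-labelled cells; it is one of the markers that named the class.

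Among the cytokines, Il6 and Il4 were basophil transcripts in marrow and Il13 was near the limit of detection. Il4, on chromosome 11 (53602982 to 53618669, minus strand, mm10), encodes the cytokine that drives IgE switching. It had 130 CPM in KO-labelled (112 to 150) and 117 CPM in WT-labelled (103 to 133) basophil-like cells, with a UMI in 37.8% and 45.3% of the cells, and 0 UMIs in plasmacytoid dendritic-like cells of both libraries. In Gata2-high progenitor-like cells there were 8 UMIs in the KO-labelled and 10 in the WT-labelled library. ILC2-like cells had 4 UMIs in the KO-labelled and 2 in the WT-labelled library.

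Outside marrow, Il4 was found in unnamed spleen clusters 8 and 7, led by the lymphocyte genes Xcl1, Cxcr6 and Ifng and by Cd40lg and Ifng. Cluster 8 had 51.5 CPM in KO-labelled and 106 CPM in WT-labelled cells. Cluster 7 had 38.7 CPM in KO-labelled and 40.1 CPM in WT-labelled cells. Over all clusters, Zbtb16, the gene of a transcription factor of innate-like lymphocytes, was among the 3 genes most like Il4 (r 0.694).

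Il13 lies 12655 bases from Il4 on the same chromosome (53631324 to 53634702, minus strand) and is often made together with it. It had 13 UMIs in KO-labelled and 22 UMIs in WT-labelled basophil-like cells, 8.95 CPM and 11.1 CPM, in 2.29% and 5.19% of the cells. These were 92.9% and 88.0% of all marrow UMIs of Il13. ILC2-like cells had 1 UMI in the KO-labelled and 0 in the WT-labelled library. In this small class 1 UMI is 10.6 CPM in KO-labelled cells, so no order against basophil-like cells is read. With cells thinned to 1000 UMIs the ILC2-like class was the highest for Il13.

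Il6, on chromosome 5 (30013114 to 30019981, plus strand, mm10), encodes interleukin 6, a cytokine of acute inflammation made by many cell types. Its level in basophil-like cells was 305 CPM in the KO-labelled library (277 to 335) and 392 CPM in the WT-labelled library (365 to 420), in 51.6% and 58.5% of the cells. Of its marrow UMIs, 96.3% in the KO-labelled and 93.7% in the WT-labelled library came from these cells. Gata2-high progenitor-like cells had 8 UMIs in each library, and ILC2-like cells had 0. Tumor endothelial-like cells came next among all classes, with 49.9 CPM in KO-labelled (4 UMIs) and 69.1 CPM in WT-labelled (38 UMIs) cells, and carcinoma-like cells had 6.27 CPM and 3.26 CPM.

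Over the 44 classes of the 3 tissues, marrow basophil-like cells thus had the highest level of 7 of 10 genes, Mcpt8, Prss34, Cpa3, Fcer1a, Il4, Il13 and Il6. For Il13 the next class, tumor T-cell-like cells with 8.27 CPM from 6 UMIs of both libraries, was not apart from the 10.2 CPM of basophil-like cells. The second class was the Gata2-high progenitor-like one for Cpa3 and Fcer1a, and the eosinophil-like one for Mcpt8 (126 CPM over both libraries).

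When each cell was thinned to 1000 UMIs, the shares of basophil-like cells with a UMI of Il4, Il6 and Il1rl1 came closer to each other between the libraries. This left 341 KO-labelled and 284 WT-labelled cells. Thinned, the share was 51.9% of KO-labelled and 43.3% of WT-labelled cells for Hdc, 15.5% and 15.8% for Il4, 27.3% and 29.6% for Il6, and 4.99% and 6.34% for Il1rl1. The order of the 2 libraries turned round for Hdc, from whose unthinned shares no order is therefore read.

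**Figure D3:**
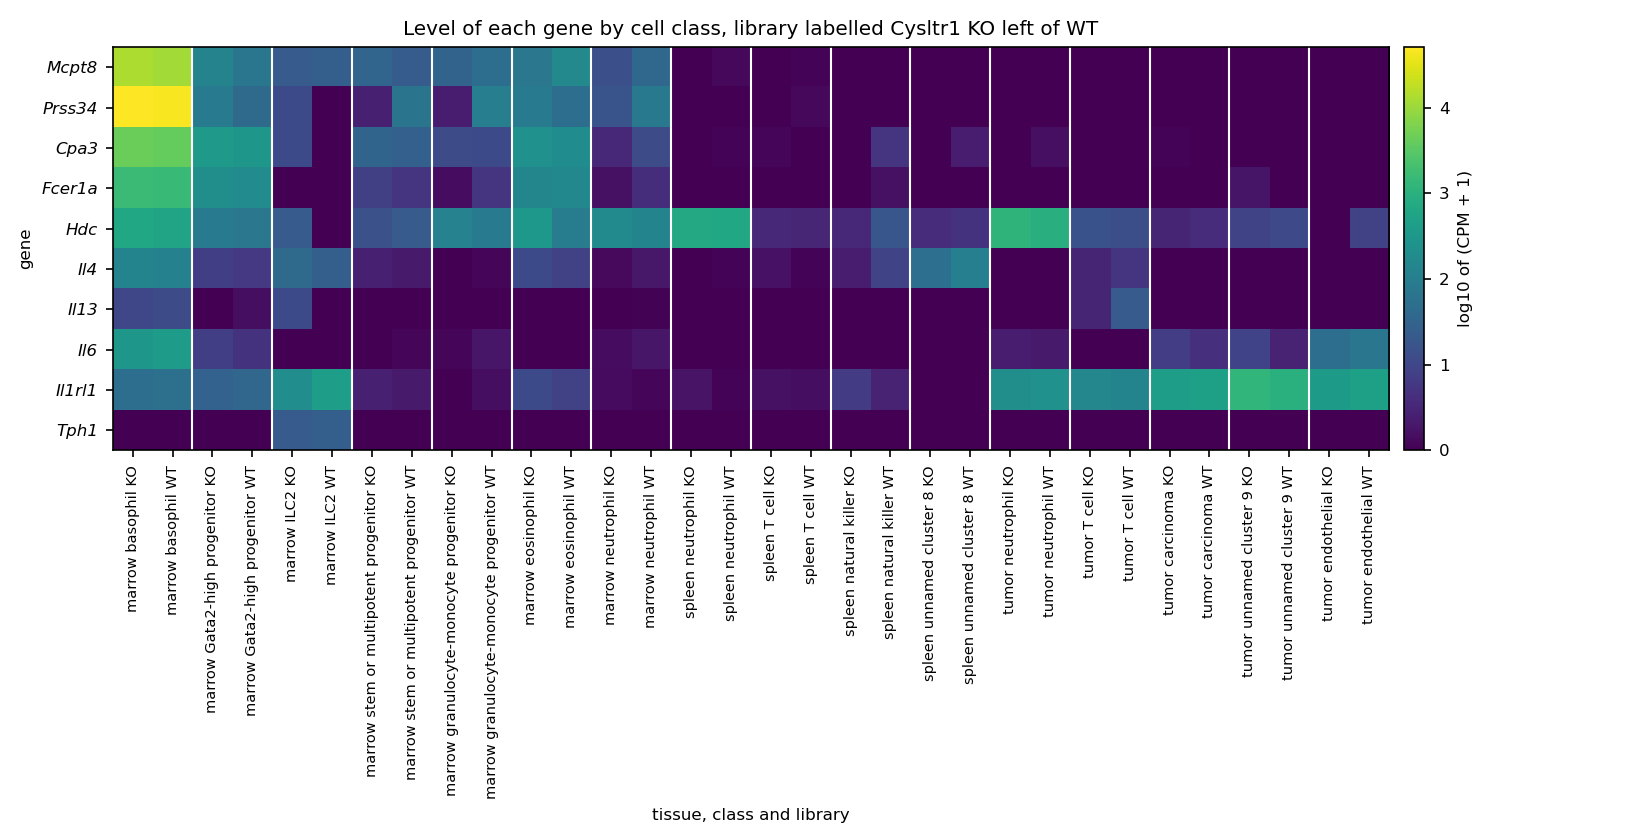
Levels of the 10 genes (rows) as log10 of CPM + 1 (color) in selected classes of marrow, spleen and tumor (columns), KO-labelled left of WT-labelled. The first pair of columns, marrow basophil-like cells, holds the brightest tiles of the upper rows, up to 51375 CPM of Prss34 in KO-labelled cells, while Hdc extends to neutrophils and Il1rl1 to tumor clusters.

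The order in which the genes appeared was read along a score. The 1055 basophil-like and Gata2-high progenitor-like cells were ranked by the mean log level of basophil markers minus that of progenitor markers, with none of the 10 genes in the score, and cut into 6 bins of 175 or 176 cells. The bins are ranges of a score in cells from 1 moment, not cell types and not times. Along them Kit, the stem cell factor receptor gene, had 160 CPM in bin 1 and 0 UMIs in bin 6. Cd34, a stem and progenitor cell gene, had 87.7 CPM in bin 1 and 5.35 CPM in bin 6. Kit and Cd34 are among the progenitor markers of the score, so their fall follows from the ranking itself. The median depth was 7185 UMIs in bin 1 and 2675 in bin 6, and the order with cells thinned to 1000 UMIs is given beside the main one.

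A gene was taken to appear in the first bin with at least 0.5 of its highest CPM. Il1rl1 appeared in bin 2. Cpa3 and Fcer1a appeared in bin 3, Mcpt8, Prss34 and Il6 in bin 4, Hdc and Il4 in bin 5, and Il13 in bin 6 from few UMIs. Of the 10 genes, 6 thus came in a later bin than Fcer1a, among them all 3 cytokines. The score is not independent of Fcer1a and Cpa3, since Ms4a2, the gene most like each of them over the clusters, is among its basophil markers.

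The shapes differed too. Cpa3 had 111, 409, 2738, 5059, 4506 and 2927 CPM over bins 1 to 6, a peak in bin 4. Mcpt8 had 5.70, 285, 6252, 14706, 14671 and 8776 CPM, and Prss34 had 3.56, 477, 18185, 60381, 65857 and 33385 CPM. The 3 proteases and Fcer1a were thus lower in the last bin than in the bin before it. Hdc did not turn down: it had 31.4, 93.4, 281, 512, 745 and 1037 CPM. Il6, with 3.56, 5.66, 98.7, 316, 487 and 610 CPM, and Il4, with 0.713, 7.08, 48.3, 97.8, 175 and 199.7 CPM, also went on to the last bin.

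The start of the serine proteases was steeper than that of Hdc. Over bins 1 to 3 the share of cells with a UMI of Mcpt8 was 3.41%, 17.6% and 75.0%, that of Prss34 was 2.84%, 10.8% and 61.4%, and that of Hdc was 12.5%, 27.8% and 72.7%. Bin 3 was where the clusters met, with 107 cells of the basophil-like and 69 of the Gata2-high progenitor-like cluster.

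The order depended on how it was read. With 0.25 of the highest bin as the threshold, Cpa3, Fcer1a, Mcpt8, Prss34 and Hdc all appeared in bin 3 and the cytokines in bin 4, so that 3 genes came later than Fcer1a. In the KO-labelled library alone it was also 3 (Hdc, Il4 and Il6). In the WT-labelled library alone it was 6 (Mcpt8, Prss34, Cpa3, Hdc, Il4 and Il6), with Cpa3 in bin 4 and Il13 not placed. With cells thinned to 1000 UMIs it was 4 (Prss34, Hdc, Il4 and Il6). Il4 and Il6 came after Fcer1a in each of these readings and along the first principal component of the same cells. Il1rl1 came before Fcer1a in each of them but the WT-labelled library alone and the principal component, where both appeared in bin 3.

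**Figure D4:**
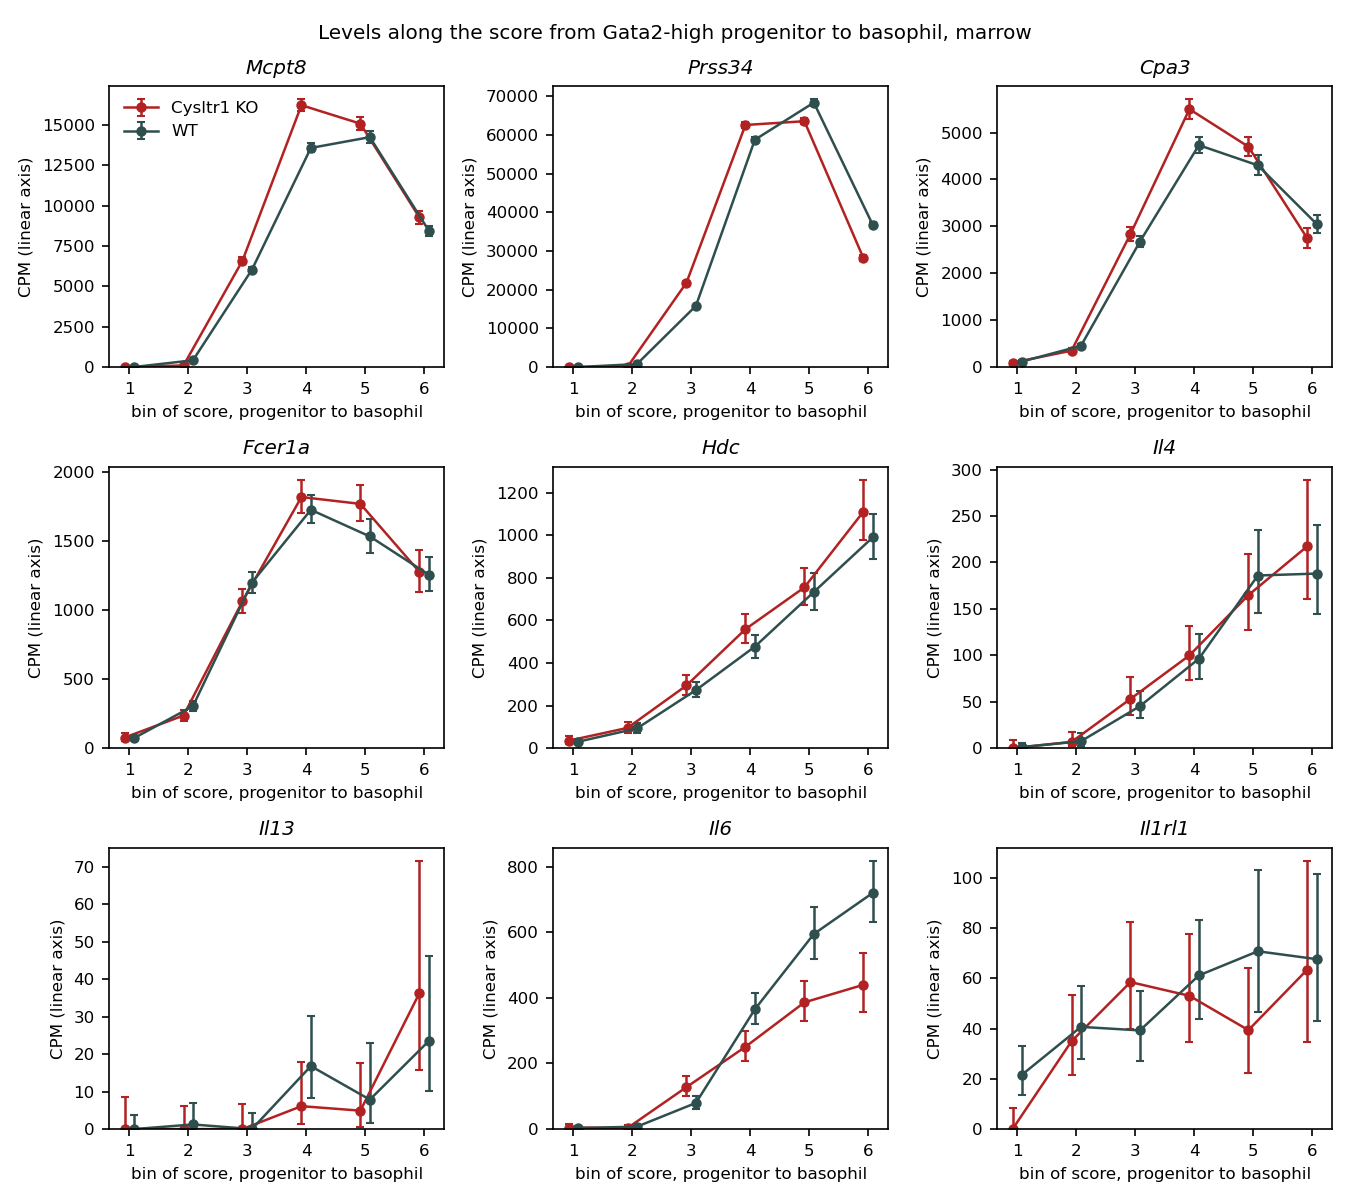
Level of 9 genes (CPM, linear axes from 0, each its own) in 6 bins of the score from Gata2-high progenitor-like (1) to basophil-like (6) marrow cells, KO-labelled in red and WT-labelled in dark grey, with 95% Poisson intervals. The proteases and Fcer1a peak in bins 4 and 5, Hdc, Il4 and Il6 are highest in bin 6, and Il6 is lower in KO-labelled cells of bins 5 and 6.

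For the comparison of genotypes, a gene was called apart where the CPM of a class differed at least 1.5-fold and the 95% intervals of the libraries did not overlap. It was compared where the class had at least 20 cells in each library and the gene at least 30 UMIs over both.

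In basophil-like cells none of the genes passed these limits. Of the 9 genes compared, 0 were higher and 0 lower in KO-labelled cells, where 1.57% of 7640 genes were called higher and 1.47% lower. The ratio of KO-labelled to WT-labelled CPM was 1.197 for Mcpt8 (1.17 to 1.22), 1.12 for Prss34, 1.14 for Cpa3, 1.06 for Fcer1a (1.004 to 1.12) and 1.17 for Hdc (1.07 to 1.28). It was 1.11 for Il4 (0.912 to 1.35), 0.943 for Il1rl1 (0.690 to 1.28) and 0.809 for Il13 (0.374 to 1.68). The ratio of Il6 was 0.779 (0.691 to 0.876), the lowest of the 9, with its interval under 1 and inside the 1.5-fold limit. The intervals of Mcpt8, Prss34, Cpa3, Fcer1a and Hdc lay above 1, so with all cells these 5 genes differed by more than counting error but by less than the limit set. With cells thinned, those of Fcer1a (0.934 to 1.22) and Hdc (0.979 to 1.43) held 1, and the other 3 stayed above it. By bin of the score, Prss34 was above 1 in bins 3 and 4 (1.38 and 1.06) and under 1 in bins 5 and 6 (0.930 and 0.768). In bin 6 Cpa3 was also under 1 (0.900), while Mcpt8 was above it (1.10).

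Split by the score, Il6 was apart among the most basophil-like cells. This comparison by bin was added after the values of the whole class were seen. In bin 5, Il6 had 386 CPM in KO-labelled and 595 CPM in WT-labelled cells, a ratio of 0.649 (0.527 to 0.7996). In bin 6 it had 440 CPM in KO-labelled and 720 CPM in WT-labelled cells, a ratio of 0.611 (0.478 to 0.776). It was the 1 gene of 8 compared that was lower in each of these bins, where 1.05% and 2.12% of all genes were called lower.

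Il6 showed the same side in bin 4 and the other in bin 3, neither of them apart. Bin 4 had 251 CPM in KO-labelled and 365 CPM in WT-labelled cells (ratio 0.687), and bin 3 had 128 CPM and 79.7 CPM (ratio 1.61). In bin 6 a UMI of Il6 was found in 48.9% of 94 KO-labelled and 63.0% of 81 WT-labelled cells. The KO-labelled cells of bin 6 were also shallower, with a median of 2244.5 UMIs against 3553 in WT-labelled cells. With cells thinned to 1000 UMIs and ranked anew, Il6 had 412 CPM in KO-labelled (295 to 562) and 773 CPM in WT-labelled cells (587 to 999.7) of bin 6, and 365 CPM (254 to 507) and 558 CPM (404 to 752) in bin 5, where the intervals overlapped. It took 10 KO-labelled and 12 WT-labelled cells of bin 6 to hold 0.5 of the Il6 UMIs, so the difference did not come from 1 cell.

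In Gata2-high progenitor-like cells 2 of 6 genes compared were higher in KO-labelled cells and 0 were lower, where 0.738% of 8133 genes were called higher and 0.787% lower. Mcpt8 had 126 CPM in KO-labelled (107 to 147) and 68.6 CPM in WT-labelled (57.6 to 81.1) cells, a ratio of 1.84 (1.45 to 2.33). Prss34 had 88.3 CPM in KO-labelled and 40.8 CPM in WT-labelled cells, a ratio of 2.17 (1.61 to 2.92). The share of cells with a UMI ran the other way, with 12.8% of KO-labelled and 14.9% of WT-labelled cells for Mcpt8 and 5.10% and 8.60% for Prss34, so no difference in the number of cells is read.

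A few cells carried much of the result for Prss34. In this class 1 KO-labelled cell held 70 of 110 UMIs of Prss34 and 1 WT-labelled cell 44 of 82. Without the highest cell of each library Prss34 was no longer apart (1.70, 1.06 to 2.73), while Mcpt8 still was (1.73, 1.33 to 2.24). With cells thinned to 1000 UMIs neither was apart, on fewer UMIs. The thinned ratio of Mcpt8 was 1.86 (1.08 to 3.26), from 38 KO-labelled and 23 WT-labelled UMIs. That of Prss34 was 1.65 (0.858 to 3.26), from 25 KO-labelled and 17 WT-labelled UMIs. When the 10 genes were allowed to take part in clustering Mcpt8 was not apart and Prss34 turned to a ratio of 0.722 (0.322 to 1.51). Cpa3, Fcer1a, Hdc and Il1rl1 had ratios of 1.14, 1.11, 1.17 and 0.819 in this class, none of them apart.

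By bin of the score both serine proteases were lower in KO-labelled cells of bin 2, which held 170 cells of that cluster and 6 of the basophil-like one. There Mcpt8 had 101 CPM in KO-labelled and 420 CPM in WT-labelled cells, and Prss34 74.9 CPM and 775 CPM, 45 and 629 UMIs. These 2 of 6 genes compared were lower, where 0.722% of all genes were called lower in bin 2. In bins 1, 3 and 4, 0 of 3, 0 of 8 and 0 of 8 genes compared were apart, where 0.74%, 1.36% and 1.82% of all genes were called higher and 0.881%, 1.32% and 1.32% lower. In bins 2, 5 and 6, 0 genes were higher, where 0.563%, 0.93% and 1.14% of all genes were. Most of the bin 2 UMIs came from the basophil-like cluster, with 23 of Mcpt8 and 38 of Prss34 in 1 KO-labelled cell and 290 and 578 in 5 WT-labelled cells. In the bin 2 cells of the progenitor-like cluster alone, Mcpt8 had 64.0 CPM in KO-labelled (45.3 to 87.9) and 67.4 CPM in WT-labelled cells (50.2 to 88.6). Prss34 had 7 UMIs in 7 KO-labelled cells and 51 UMIs in 8 WT-labelled cells there. In the bin 3 cells of the progenitor-like cluster alone, both genes were higher in KO-labelled cells. Mcpt8 had 526 CPM in 39 KO-labelled cells (435 to 631) and 261 CPM in 30 WT-labelled cells (204 to 330). Prss34 had 103 UMIs in 3 KO-labelled cells and 21 UMIs in 5 WT-labelled cells, 467 CPM and 77.3 CPM. These bin 3 cells held 116 of the 157 Mcpt8 UMIs and 103 of the 110 Prss34 UMIs of the KO-labelled class.

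In ILC2-like cells only Il1rl1 had enough UMIs. Its 201 CPM in KO-labelled and 415 CPM in WT-labelled cells gave a ratio of 0.483 (0.259 to 0.879), with Poisson intervals that overlapped, so that 0 of 1 gene was apart, where 3.87% of 723 genes were called higher and 4.15% lower.

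**Figure D5:**
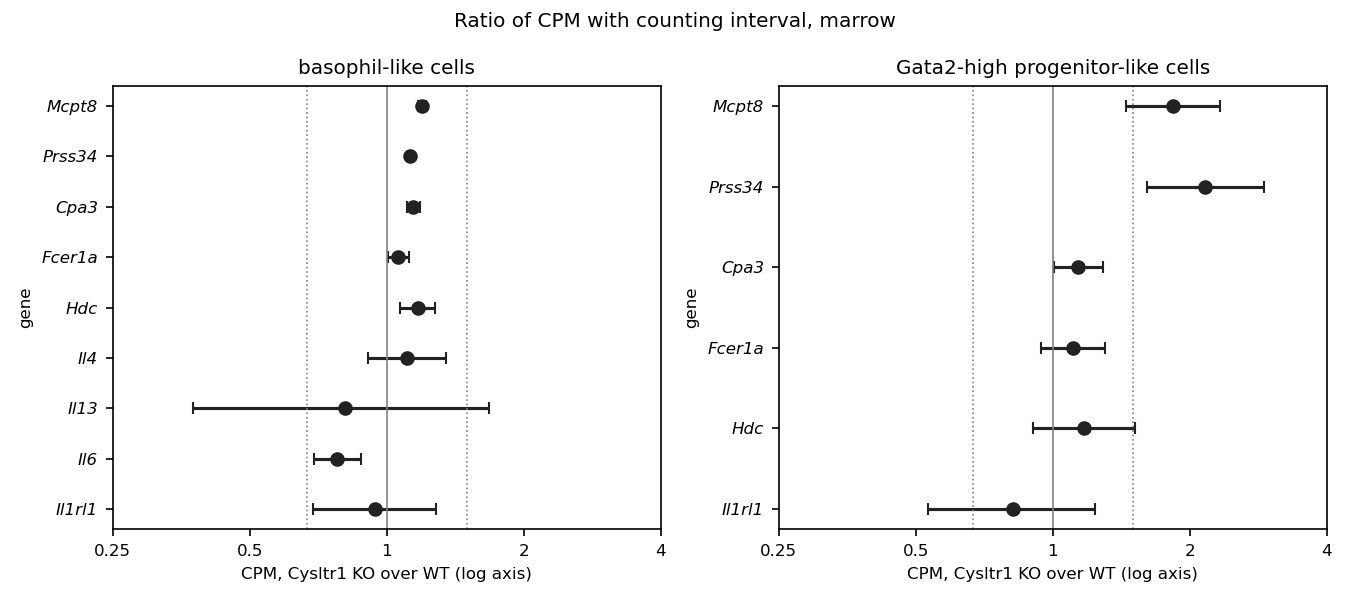
Ratio of CPM in KO-labelled over WT-labelled cells (log axis) for the genes with at least 30 UMIs, with 95% counting intervals, in basophil-like (left) and Gata2-high progenitor-like (right) marrow cells. Dotted lines mark 1.5-fold either way. In basophil-like cells all points lie between the lines, and in the progenitor-like cells those of Mcpt8 (1.84) and Prss34 (2.17) lie beyond.

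Over all classes with enough cells, 71 pairs of a gene and a class were compared, of which 6 were higher and 10 lower in KO-labelled cells and 55 were not apart. Over all pairs of a gene and a class, 2.52% were called higher and 1.85% lower. With cells thinned to 1000 UMIs, 3 of the 16 pairs were still apart the same way (Prss34 in granulocyte-monocyte progenitor-like cells, and Mcpt8 and Prss34 in marrow neutrophil-like cells), 5 were compared and not apart, and 8 were under the minimum of UMIs or cells. Of the lower pairs, 8 were low levels of basophil genes in other marrow progenitors and neutrophils. In granulocyte-monocyte progenitor-like cells Mcpt8 had 31.0 CPM in KO-labelled and 48.8 CPM in WT-labelled cells, where 0.962% of genes were called lower. It was found there in 14.98% of KO-labelled and 24.9% of WT-labelled cells, and with cells thinned it was not apart (ratio 0.435, 0.209 to 0.843).

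Prss34 in the same class had 9 UMIs in 8 KO-labelled cells and 1841 UMIs in 34 WT-labelled cells, and 4 WT-labelled cells held 0.5 of them. Without the highest cell of each library there were still 7 UMIs in KO-labelled and 1516 in WT-labelled cells. Fcer1a had 3 UMIs in KO-labelled and 75 in WT-labelled cells of the class. In marrow neutrophil-like cells, where 4.09% of genes were called lower, Mcpt8 (13.1 CPM in KO-labelled, 37.7 CPM in WT-labelled cells), Prss34 (15.7 and 78.5 CPM), Cpa3 (2.32 and 11.5 CPM) and Fcer1a (8 and 45 UMIs) were lower. In WT-labelled neutrophil-like cells 727 of 1125 UMIs of Prss34 came from 1 cell, and 1097 from 14 cells of cluster 5. In that cluster Prss34 had 10.9 CPM in KO-labelled and 877 CPM in WT-labelled cells, and Cpa3 8.72 CPM and 124 CPM. In clusters 0 and 7 Prss34 was on the other side, with 32.0 and 12.1 CPM in KO-labelled and 1.66 and 1.92 CPM in WT-labelled cells. The KO-labelled values came from 105 UMIs in 5 cells of cluster 0, 101 of them in 1 cell, and 61 UMIs in 10 cells of cluster 7. In stem or multipotent progenitor-like cells, where 1.06% of genes were called lower, Prss34 had 3 UMIs in KO-labelled and 321 in WT-labelled cells, 227 of them in 1 cell.

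The other pairs were single genes in single classes. Hdc was higher in KO-labelled eosinophil-like cells (323 CPM from 31 UMIs, against 98.8 CPM from 14 UMIs in WT-labelled cells), where 3.46% of genes were called higher. It was lower in spleen natural-killer-like cells (5 UMIs in KO-labelled, 27 in WT-labelled cells), where 4.68% were called lower. Il4 was lower in KO-labelled cells of spleen cluster 8 (ratio 0.486, 0.349 to 0.676), with a UMI in 12.5% of KO-labelled and 20.3% of WT-labelled cells, where 1.27% were called lower. With cells thinned this ratio was 0.678 (0.334 to 1.36) and not apart.

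In tumor, 3 pairs were higher in KO-labelled cells. Il1rl1 was higher in cluster 1 (777 CPM in KO-labelled and 363 CPM in WT-labelled cells; 0.794% of genes called higher) and in natural-killer-like cells (141 CPM and 73.0 CPM; 3.44% called higher), in which Krt8 had 122 CPM in KO-labelled and 73.0 CPM in WT-labelled cells; the part of free RNA was not tested. With cells thinned, the ratio in natural-killer-like cells was 1.08 (0.501 to 2.52) and not apart. Il6 was higher in cluster 2 (6.27 CPM in KO-labelled and 2.66 CPM in WT-labelled cells, ratio 2.35, 1.68 to 3.32), where 1.5% of genes were called higher.

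The rest of the effector program of basophils was read from 7 lists of other genes. In basophil-like cells, where 1.57% of all genes were called higher and 1.47% lower, 0 of 17 Fc receptor and cytokine receptor genes, 0 of 9 other proteases and storage genes, 0 of 5 lipid mediator genes and 0 of 3 receptors of the mediators that could be compared were apart. Of 6 amine genes 1 was lower, Pts, an enzyme of tetrahydrobiopterin synthesis (56.5 CPM in KO-labelled and 86.5 CPM in WT-labelled cells). Of 10 cytokine and chemokine genes 1 was higher, the chemokine gene Ccl6 (1606 CPM in KO-labelled and 901 CPM in WT-labelled cells). Of 14 transcription factor genes, Irf8 was higher (14.5 CPM in KO-labelled and 4.52 CPM in WT-labelled cells) and Ikzf2 lower (178 CPM and 268 CPM). With cells thinned Ccl6 was still higher, Pts and Ikzf2 were not apart, and Irf8 was under the minimum; Cd200r3, Crlf2 and Il2rg were then higher and Lmo4 lower. The median log2 ratio of all 7640 genes was 0.03, and those of the lists lay between -0.34 (amine genes) and 0.20 (cytokines and chemokines).

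These lists also place the 10 genes in a wider set of basophil transcripts. The chemokine genes Ccl3 and Ccl4 had 6357 and 8962 CPM in KO-labelled and 5788 and 6985 CPM in WT-labelled basophil-like cells, and the cytokine gene Osm, one of the markers of the class, had 1380 CPM and 1106 CPM. Of the leukotriene pathway, whose products are the ligands of the targeted receptor, Alox5ap had 2353 CPM in KO-labelled and 2188 CPM in WT-labelled cells and Alox5 had 444 CPM and 386 CPM. Hpgds, the prostaglandin D synthase gene of mast cells, had 0 UMIs.

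In Gata2-high progenitor-like cells, where 0.738% of all genes were called higher and 0.787% lower, 0 of 12 receptor genes, 0 of 6 amine genes, 0 of 5 lipid mediator genes and 0 of 1 receptor of the mediators were apart. Of 9 other protease and storage genes 1 was higher, Gzmb, the gene of granzyme B (154 CPM in KO-labelled and 59.2 CPM in WT-labelled cells). Of 9 cytokine and chemokine genes 2 were lower, Csf1 (13.6 CPM in KO-labelled and 34.8 CPM in WT-labelled cells) and Ccl4 (80.3 CPM and 141 CPM). Of 11 transcription factor genes 1 was higher, Id2 (30.5 CPM in KO-labelled and 10.9 CPM in WT-labelled cells). With cells thinned Gzmb and Ccl4 were still apart, and Csf1 and Id2 were under the minimum. In ILC2-like cells, where 3.87% of all genes were called higher and 4.15% lower, 1 of 3 storage genes compared was higher, the galectin gene Lgals1 (433 CPM in KO-labelled and 182 CPM in WT-labelled cells). Of 4 transcription factor genes 2 were lower, Gata3 (401 CPM and 740 CPM), which is also one of the markers of the class, and Lmo4 (232 CPM and 610 CPM). With cells thinned Gata3 and Lmo4 were not apart and Lgals1 was under the minimum.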

How the data were processed

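Single cells were measured in 6 libraries (marrow, spleen and tumor of mice labelled Cysltr1 KO and WT). Values as deposited are raw UMI counts, whole and without normalization. The file headers give Cell Ranger 6.1.0 as the software, whereas version 6.0.0 and the build mm10 stand in the submitters' processing notes. Per the labels' protocols both a 5′ and a 3′ kit are named, so the transcript end that was read is not known. The 10 genes and all lists were chosen with earlier results of these data known.

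Barcodes with at least 300 genes, 500 UMIs and at most 10% mitochondrial UMIs were kept, and doublets were removed by Scrublet score (in scanpy) at 0.8% per 1000 barcodes. Cells of a tissue were clustered together (scanpy 1.11.5, igraph 0.11.9, 2000 variable genes without the 10 genes, 30 components, 15 neighbours, Leiden resolution 1). Names needed 3 detected markers and more of them among the 10 leading genes than any other class. These naming thresholds were set after seeing the data. Clusters left unnamed held 1.83% of KO-labelled and 4.93% of WT-labelled marrow cells, 16.7% and 20.3% of spleen cells, and 37.9% and 58.1% of tumor cells.

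UMIs were summed per class and library and given as CPM with exact Poisson intervals (SciPy 1.17.1). Shares of cells have Clopper-Pearson intervals, ratios have conditional exact intervals, and the floor for 0 UMIs is 3 counts. With 1 library per group no test was run. The rule for calling a gene apart was checked on simulated Poisson counts with known folds. The rule for named genes takes the 10 genes in every class of at least 20 cells, up to 4 genes of each list that were apart, and the 3 genes most similar to each by Pearson r over clusters of at least 30 cells. UMIs count molecules by 1 end, so no length was divided out, and levels of different genes were not ranked against each other. Mir6949 and Mir7007 lie within Mcpt8 and Cpa3 on the same strand and are not listed in the files, and no other annotated gene overlaps the 10. In 3 libraries 19 antibody features were left out. Alternatives were another mitochondrial limit, doublets kept, resolution 2, the 10 genes allowed in clustering, thinning, a lower UMI minimum and a 2-fold limit for the lists. The readings without the highest cell, by bin of the score, and by cluster within a bin were added after seeing the data.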

Additional observations from a re-analysis of the deposited data

How the results depend on the processing

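In the basophil-like, Gata2-high progenitor-like and ILC2-like classes 2 pairs of a gene and a class were apart. The number was 0 with up to 20% mitochondrial UMIs, 0 with the 10 genes allowed in clustering, 0 with cells thinned to 1000 UMIs, and 1 without the highest cell of each library. It was 2 with doublets kept, at resolution 2 and with a minimum of 10 UMIs, though at resolution 2 the pairs were Cpa3 and Fcer1a in the progenitor-like class. Prss34 in that class turned to a ratio of 0.722 with the 10 genes allowed in clustering; the cause was not tested. The basophil-like share of KO-labelled marrow was 6.55% with up to 20% mitochondrial UMIs and 6.76% at resolution 2, and that of WT-labelled marrow 7.01% and 7.24%. Basophil-like cells were the highest class of 5 to 7 genes under every alternative run. At resolution 2 a spleen ILC2-like class led for Il4 and tumor T-cell-like cells for Il13. Tumor T-cell-like cells also led for Il13 with up to 20% mitochondrial UMIs, and marrow ILC2-like cells did with cells thinned to 1000 UMIs. The number of genes that appeared after Fcer1a was 3 at 0.25 of the highest bin and 3 in the KO-labelled library alone, against 6 as reported. Of the other pathway genes 11 were apart, 6 at 2-fold and 7 with cells thinned, 3 of which were among the 11. Over all classes, 3 of the 16 pairs apart were still apart with cells thinned. The Gata2-high progenitor-like class gave no value for Mcpt8 and Prss34 with up to 20% mitochondrial UMIs or at resolution 2. No paired analysis was possible because there was 1 library per tissue and genotype. Depth limits Il13 and Tph1, which had few UMIs, and the ILC2-like class, which had few cells.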

Other observations

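Mast cell transcripts were found in a few tumor cells. In the KO-labelled tumor library 9 cells had a UMI of Cpa3 or Tph1, 5 of them of both, with 19 UMIs of Cpa3 and 16 of Tph1 in all. In the WT-labelled tumor library 3 cells had one, with 1 UMI of Cpa3 and 2 of Tph1. Cells were picked by these 2 genes, so mast cell transcripts in other cells of either library were not looked for. Of the KO-labelled cells, 5 also carried 16 to 41 UMIs of Cma1, the mast cell chymase gene, together with UMIs of Mcpt4, Tpsb2, Tpsab1 and Mcpt2, while Mcpt8 and Prss34 had 0 UMIs in both tumor libraries. The 5 cells with Cma1 were not all among the 5 with both Cpa3 and Tph1. The cells with Cma1 did not form a cluster of their own and lay in clusters 2 and 10. In spleen Mcpt8 had 0 UMIs in KO-labelled and 6 in WT-labelled cells. In the WT-labelled spleen library 1 cell had 7 UMIs of Cpa3, with 2 of Kit and 3 of Gata2.

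Marrow eosinophil-like cells, 27 KO-labelled and 75 WT-labelled, had low levels of the same genes. Over both libraries they had 210 CPM of Cpa3, 151 CPM of Fcer1a, 126 CPM of Mcpt8 and 63.1 CPM of Prss34, from few cells, 16.7% of which had a UMI of Cpa3.

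The receptors of the mediators were mostly on other classes. Among 37 classes with at least 20 cells in each library, Il4ra was highest over both libraries in tumor macrophage-like cells, with 196 CPM in KO-labelled and 189 CPM in WT-labelled cells, although spleen cluster 11 had 196 CPM in WT-labelled cells. It had 0.689 CPM and 4.52 CPM in basophil-like cells. Il13ra1 was highest in unnamed spleen cluster 11, with 275 CPM in KO-labelled and 262 CPM in WT-labelled cells, and so was the histamine receptor gene Hrh2, with 51.2 CPM and 40.9 CPM. Il6ra was highest in spleen monocyte-like cells, with 213 CPM in KO-labelled and 188 CPM in WT-labelled cells. Hrh4, another histamine receptor gene, was highest in basophil-like cells themselves, with 8.95 CPM in KO-labelled and 12.1 CPM in WT-labelled cells, from 37 UMIs.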
